A study of Mus musculus with 8 samples.

Results

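The genes described here make up the lysosomal enzyme and TFEB pathway of the mouse liver: 35 genes of lysosomal proteases, glycosidases and lipases, membrane proteins, lipid transfer proteins, subunits of the proton pump, and the transcription factors Tfeb and Tfe3. They were taken from a list of names and not for their values, and each was found on the array by matching the accession of its probe to a mouse RefSeq symbol. All 35 were measured, out of 23911 named genes tested, and the probe of each was well above background on all 8 arrays.

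The arrays compared livers of 2 recombinant congenic lines on an NZO background, a polygenic model of obesity and diabetes. Ltg/NZO.5.3N/B mice (NB below, 4 arrays, sample numbers 2, 3, 5 and 8) and Ltg/NZO.5.3N/N mice (NN below, 4 arrays, sample numbers 1, 4, 6 and 7) differ, per the series title, in a segment of 5.3 Mbp on chromosome 18. Both were male, carry the strain label NZO/HiBomDifexC57BL/6J, were given a high fat diet (45% fat) and were sampled at 5 weeks of age. Each line is 1 genotype on 1 background, the labels do not say that each array is a separate animal, and a p-value here therefore refers to the variation among these 8 samples, which may be technical. RNA came from whole liver, in which hepatocytes, Kupffer cells (the resident macrophages) and other cells are mixed, so that fewer cells of a type and less RNA per cell cannot be told apart. All 10 hepatocyte markers and all 11 Kupffer cell markers checked were measured, as were 10 of 11 recruited macrophage markers and 4 of 5 neutrophil markers.

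Lysosomes break down proteins, glycans and lipids taken up by the cell or delivered by autophagy, in a lumen that a proton pump keeps acid. TFEB and its relative TFE3 are transcription factors that drive lysosomal genes by binding a short palindrome, the CLEAR element, in their promoters. The kinase mTORC1, itself held at the lysosomal surface, phosphorylates TFEB in fed cells and keeps it in the cytoplasm, and fasting releases it to the nucleus. In liver this pathway is known for lipophagy, the breakdown of lipid droplets in lysosomes. Control of TFEB lies largely in its phosphorylation and location, which an array of RNA levels does not measure. Macrophages are rich in lysosomes, and cathepsins C, H, S and Z, which are abundant in them, are described apart from the other proteases.

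The promoters of several of these genes carry a short word found in the element that TFEB binds, and 6 of them are printed. RefSeq promoter sequences of the GRCm38.p6 build (250 bases before to 50 bases after the start of each gene) were available for 30 of the 35 genes. They were searched on both strands for the E-box CACGTG and for TCACGTGA, the core of the CLEAR element. Both words are palindromes, and each TCACGTGA holds a CACGTG. Of the promoters printed, those of Mcoln1, Cln3, Ctsd and Atp6v1a hold TCACGTGA, and those of Lamp1 and Lgmn hold CACGTG alone. The windows below run 5′ to 3′ on the strand of the gene, and capitals mark the matches.
Mcoln1 (chr8:3500428-3500500, plus strand): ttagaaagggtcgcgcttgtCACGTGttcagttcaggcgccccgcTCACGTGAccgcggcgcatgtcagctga
Cln3 (chr7:126583331-126583405, minus strand): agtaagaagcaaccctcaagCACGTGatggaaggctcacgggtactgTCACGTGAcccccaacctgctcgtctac
Ctsd (chr7:142387899-142387946, minus strand): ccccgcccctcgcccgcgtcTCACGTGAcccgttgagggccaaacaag
Atp6v1a (chr16:44139364-44139411, minus strand): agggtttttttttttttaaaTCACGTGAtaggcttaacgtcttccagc
Lamp1 (chr8:13159080-13159160, plus strand): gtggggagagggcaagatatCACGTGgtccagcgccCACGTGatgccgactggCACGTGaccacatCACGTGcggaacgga
Lgmn (chr12:102439116-102439161, minus strand): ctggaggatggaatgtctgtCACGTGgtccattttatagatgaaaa

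The E-box stood in 11 of the 30 promoters (36.7%), against 2187 of the 27025 genes in the promoter table (8.09%). The longer TCACGTGA stood in 6 of the 30 (20%), those of Atp6v0d1, Atp6v1a, Cln3, Ctsa, Ctsd and Mcoln1, against 304 of 27025 genes (1.12%). Ctsf, Ctsl, Gaa, Lamp1 and Lgmn carried the E-box alone, and Lamp1 carried it 4 times within its window. Among 84 further lysosomal and TFEB pathway genes with a promoter sequence, 21 held the E-box (25%) and 8 held TCACGTGA (9.52%). The promoters of Tfeb, Tfe3, Lipa, Ctsc, Ctss and Ctsz held neither word in this window. A match describes the letters of the promoter and does not show that a factor binds there. Both lists were made of genes of this pathway, some of the further ones named as TFEB targets. A higher share than over all genes is therefore not a separate result.

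Between the genotypes, the difference of none of the 35 genes stood out from the spread between arrays. With limma over all 42982 features and Benjamini-Hochberg adjustment at 0.05, 0 of the 35 were called, where 3 features were called in all (0.00698%). At an unadjusted p under 0.05 the count was also 0 of 35, against 728 of 42982 features (1.69%). In none of the 35 did the 4 NB arrays lie wholly above or below the 4 NN arrays, a pattern seen in 467 of 42512 features with 8 values (1.1%). The log2 fold change, NB over NN, was positive in 22 genes and negative in 13, while it was positive in 45.9% of all features. This log2 fold change had a median of 0.01 over the 35, against -0.01 over all features. It ran from -0.11 (Ctsf) to 0.22 (Ctss), and in 25 of the 35 its size was under 0.1.

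With all 8 arrays, the data bound each of these differences singly, not the 35 jointly. The 95% interval of each of the 35 then lay within a 1.5-fold difference in either direction. Leaving out 1 array took some upper ends past 1.5-fold. Without NN 7 that of Lgmn was 0.66 log2 units, against 0.56 with all arrays. Without NB 2 that of Ctsc was 0.65, against 0.54. With all arrays, the highest upper end was 1.48-fold higher in NB, for Lgmn, and the lowest lower end was 1.31-fold lower in NB, for Galc. The arrays of 1 genotype differed from each other by a median SD of 0.145 log2 units over the 35 genes, from 0.0591 to 0.265 by gene, against 0.172 over all features. Of the 35, 31 rested on 1 probe above background, and 4 (Cd63, Ctss, Lamp2 and Rab7) had 2 of them.

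**Figure D1:**
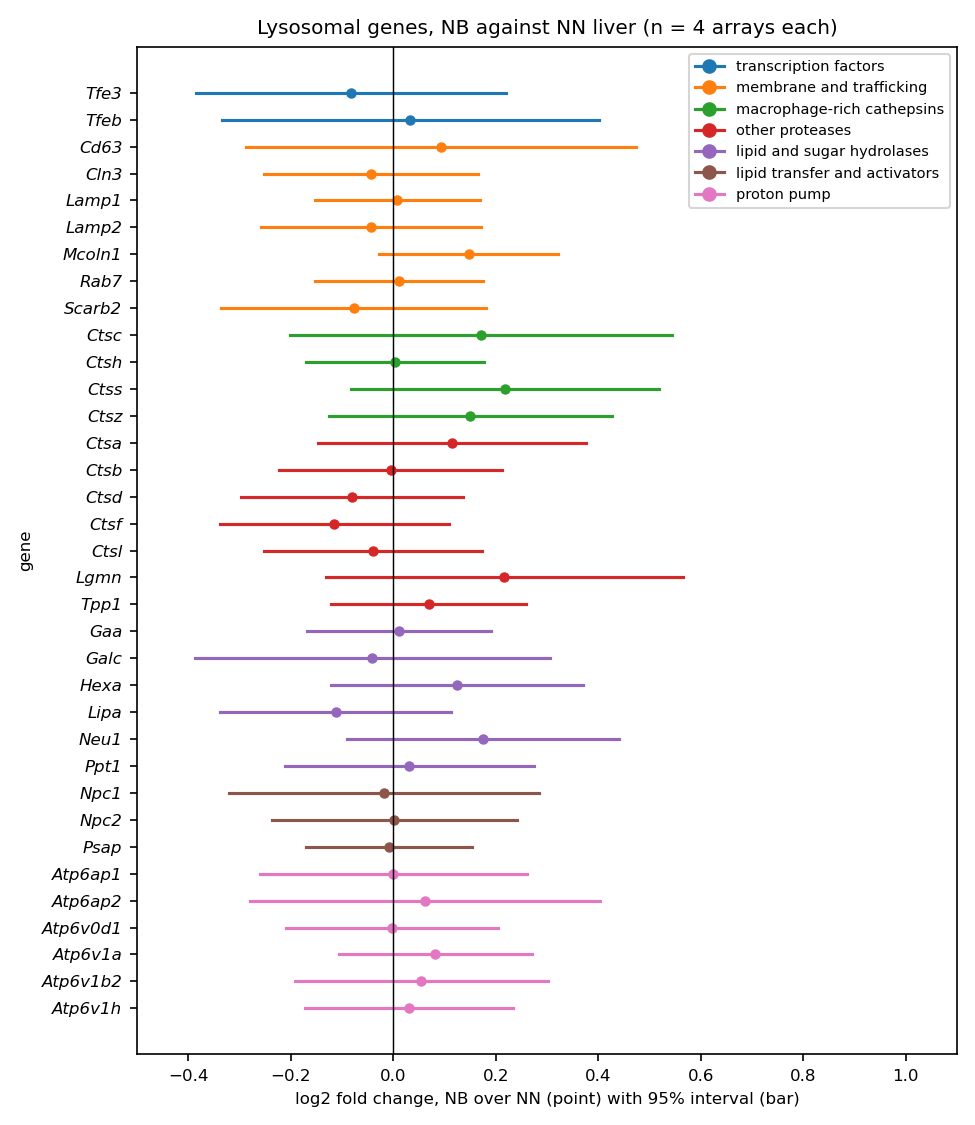
Log2 fold change of the 35 genes, NB over NN (points, horizontal axis), with 95% intervals (bars), n = 4 arrays per genotype, coloured by role and with 1 gene per row. All 35 intervals cross 0; the point estimates run from -0.11 for Ctsf to 0.22 for Ctss.

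The 2 transcription factors gave opposite signs, both small beside their spread. Values here and below are log2 signals scaled by array, so that 0 is the brightness of its 75th percentile. Tfeb, the factor that gives the pathway its name, had 3.01, 3.24, 2.92 and 2.49 on the NB arrays, against 3.08, 2.94, 2.65 and 2.87 on the NN arrays. The lowest and the highest of its 8 values were both NB arrays. Its log2 fold change was 0.03 ± 0.16 (SE, n = 4 per genotype), with a 95% interval from -0.33 to 0.40. Tfe3, which binds the same element, had 1.33, 1.70, 1.67 and 1.88 in NB, against 1.54, 1.68, 1.94 and 1.74 in NN. Its groups overlapped and its log2 fold change was -0.08 ± 0.13 (SE).

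Of the 7 membrane and trafficking genes, 4 had a positive and 3 a negative log2 fold change, with a median of 0.01. Mcoln1 encodes the calcium channel of the lysosomal membrane that signals to TFEB. It had -0.35, -0.19, -0.25 and -0.19 in NB, against -0.47, -0.46, -0.30 and -0.36 in NN, and 3 of its NB values lay above all its NN values. Of the 35 genes Mcoln1 had the smallest p of the genotype test, 0.0876 unadjusted and 1.00 adjusted (limma). Its log2 fold change was 0.15, with a 95% interval from -0.03 to 0.32. On the slide each column held 1 array of each genotype, and Mcoln1 was higher in NB in all 4 columns, by 0.12, 0.26, 0.05 and 0.16. Of the 35 genes, 1 was higher in all 4 columns and 1, Ctsf, was lower in all 4. The share of all features with such a pattern was not computed, so it is not read as a trait of either gene.

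Scarb2, the receptor that carries glucocerebrosidase to the lysosome, had 3.50, 3.46, 3.64 and 3.95 in NB, against 3.70, 3.64, 3.76 and 3.77 in NN. Its NB values included both the lowest and the highest, and its log2 fold change was -0.08 ± 0.11 (SE). Cln3, a membrane protein lost in a form of Batten disease, had 1.26, 1.05, 1.04 and 0.98 in NB, against 1.27, 1.14, 1.01 and 1.08 in NN. Lamp2, a main glycoprotein of the lysosomal membrane and the receptor of chaperone-mediated autophagy, had 5.08, 4.91, 4.95 and 4.82 in NB, against 5.16, 5.00, 4.86 and 4.91 in NN. Both overlapped between genotypes, with a log2 fold change of -0.04 each. Lamp1, its relative, varied least of this group, with 6.59 ± 0.03 in NB and 6.58 ± 0.08 in NN (SD). Rab7, the GTPase of late endosomes, averaged 2.08 ± 0.06 in NB and 2.07 ± 0.07 in NN (SD), and its 2 probes differed in sign. The tetraspanin Cd63 had 0.96, 1.65, 1.76 and 1.61 in NB, against 1.42, 1.29, 1.41 and 1.49 in NN. Its array NB 2 was the lowest of all 8, while the other NB arrays were above all NN arrays.

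The 4 macrophage-rich cathepsins all had a positive log2 fold change, with a median of 0.16, and none was called. Ctss, the cathepsin that trims the invariant chain in antigen presentation, had 2.32, 2.84, 2.79 and 2.74 in NB, against 2.33, 2.34, 2.51 and 2.65 in NN. The NB arrays other than NB 2 lay above all NN arrays, and NB 2 lay below them all. The log2 fold change was 0.22 ± 0.13 (SE, limma), with a 95% interval from -0.08 to 0.52 and an unadjusted p of 0.134. Ctsc, which activates serine proteases of leukocytes, had 2.36, 2.61, 2.77 and 2.61 in NB, against 2.20, 2.10, 2.80 and 2.57 in NN. Its values spread more within NN (SD 0.32) than within NB (SD 0.17), and the log2 fold change was 0.17 ± 0.16 (SE). Ctsz, a carboxypeptidase, had 4.02, 4.52, 4.32 and 4.23 in NB, against 3.95, 4.09, 4.17 and 4.28 in NN. Its groups overlapped, and its log2 fold change was 0.15 ± 0.12 (SE). Ctsh, an aminopeptidase, stood apart from the other 3 with a log2 fold change of 0.00 ± 0.08 (SE). It had 5.83, 5.77, 5.80 and 5.74 in NB, against 5.91, 5.70, 5.70 and 5.81 in NN.

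Of the 7 other proteases, 3 had a positive and 4 a negative log2 fold change. Lgmn encodes legumain, an asparaginyl endopeptidase that processes several cathepsins. It had 3.12, 3.73, 3.63 and 3.54 in NB, against 3.15, 3.08, 3.42 and 3.51 in NN. The pattern over arrays was that of Ctss: NB 2 was among the lowest, and the other NB arrays were above all NN arrays. Its log2 fold change was 0.22 ± 0.15 (SE), with a 95% interval from -0.13 to 0.56. Ctsf, a cysteine protease, had 1.89, 1.53, 1.75 and 1.77 in NB, against 2.00, 1.81, 1.75 and 1.83 in NN. Its log2 fold change was -0.11 ± 0.10 (SE). Its differences in the 4 slide columns were all negative, at -0.12, -0.28, -0.0046 and -0.06, a pattern whose share over all features was not computed.

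Ctsd, the main aspartic protease of the lysosome, had 4.84, 5.01, 5.09 and 5.18 in NB, against 5.10, 4.98, 5.17 and 5.20 in NN. Its groups overlapped, with a log2 fold change of -0.08 ± 0.10 (SE). The widely expressed cysteine proteases Ctsb and Ctsl gave log2 fold changes of -0.0050 (95% interval -0.22 to 0.21) and -0.04 (-0.25 to 0.17). Ctsa, the carboxypeptidase that stabilises the sialidase Neu1, averaged 4.63 ± 0.23 in NB and 4.51 ± 0.03 in NN (SD). Tpp1, a tripeptidyl peptidase, averaged 3.50 ± 0.11 in NB and 3.43 ± 0.07 in NN (SD).

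Of the 6 hydrolases of lipids and sugars, 4 had a positive and 2 a negative log2 fold change, with a median of 0.02. Lipa, the acid lipase that frees cholesterol and fatty acids from lipid taken into the lysosome, had 4.34, 4.27, 4.42 and 4.49 in NB, against 4.64, 4.28, 4.58 and 4.47 in NN. Its 2 highest values were NN arrays and its lowest was an NB array, yet the groups overlapped. Its log2 fold change was -0.11 ± 0.10 (SE), with a 95% interval from -0.34 to 0.11 and an unadjusted p of 0.287 (limma). Neu1, the sialidase, had 3.04, 3.53, 3.17 and 3.28 in NB, against 3.17, 3.10, 2.91 and 3.14 in NN. Hexa, the alpha subunit of beta-hexosaminidase, had 2.33, 2.67, 2.39 and 2.48 in NB, against 2.54, 2.29, 2.18 and 2.37 in NN. In both, NB 3 was the highest array and NN 6 the lowest, and the log2 fold changes were 0.18 ± 0.12 and 0.12 ± 0.11 (SE). Gaa, which degrades glycogen, averaged 4.00 ± 0.08 in NB and 3.99 ± 0.09 in NN (SD). Ppt1, a thioesterase, averaged 1.52 ± 0.20 in NB and 1.49 ± 0.06 in NN (SD). Galc, which degrades galactosylceramide, averaged -3.17 ± 0.26 in NB and -3.13 ± 0.22 in NN (SD).

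The 3 lipid transfer and activator genes had log2 fold changes near 0. Npc1 and Npc2 pass cholesterol out of the lysosome, and Psap is the precursor of the saposins, which activate sphingolipid hydrolases. Npc1, which lies on chromosome 18 as the congenic segment does, had 2.64, 2.70, 2.39 and 2.63 in NB, against 2.88, 2.70, 2.29 and 2.55 in NN. The labels give no coordinates of the segment, so whether Npc1 lies in it was not settled. The log2 fold change of Npc1 was -0.02, with a 95% interval from -0.32 to 0.28. Npc2 averaged 4.21 ± 0.14 in NB and 4.21 ± 0.15 in NN, and Psap averaged 5.89 ± 0.02 in NB and 5.90 ± 0.08 in NN (SD).

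Of the 6 proton pump genes, 5 had a positive log2 fold change and 1 a negative one, with a median of 0.04. Atp6v1a, the catalytic subunit, had 1.18, 1.30, 1.36 and 1.44 in NB, against 1.27, 1.14, 1.22 and 1.33 in NN. Its groups overlapped, with a log2 fold change of 0.08 ± 0.08 (SE). The other 5 had log2 fold changes from -0.0030 to 0.06: the subunits Atp6v0d1, Atp6v1b2 and Atp6v1h, and the accessory proteins Atp6ap1 and Atp6ap2. Over the 6 genes together, the mean deviation from each gene's average was lowest on array NB 2, at -0.21, and highest on array NB 8, at 0.14.

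**Figure D2:**
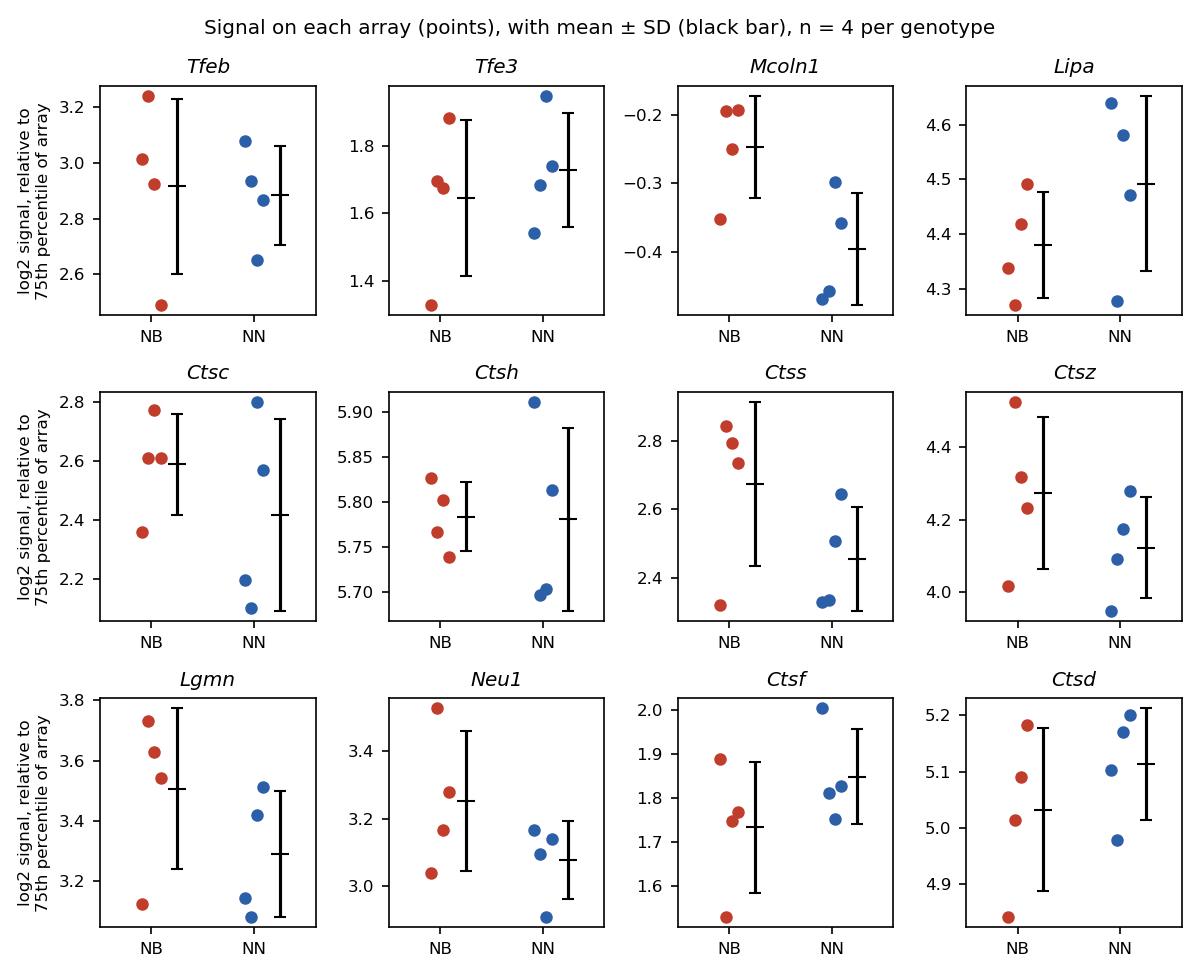
Log2 signal (0 is the 75th percentile of the array) for 12 of the genes, 1 panel each, with 1 point per array and the mean ± SD as a black bar, NB left and NN right (n = 4 each). The groups overlap in every panel; in Ctss and Lgmn, 3 NB points lie above the NN points and 1 lies at the level of the lowest of them.

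Genes with the CLEAR core in their promoter had log2 fold changes of both signs. Of the 6 with TCACGTGA, 3 had a positive and 3 a negative log2 fold change, with a median of 0.04 and a range from -0.08 (Ctsd) to 0.15 (Mcoln1). Of the 19 genes with a promoter sequence and neither word, 13 had a positive and 6 a negative log2 fold change, with a median of 0.03. The difference between these sets was not tested.

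One array, NB 2, decided part of these values. Without it, 5 of the 35 genes had an unadjusted p under 0.05, all of them higher in NB. In the same fit 3.38% of all features were at that level in either direction, and 713 of 42953 were at that level and higher in NB. The log2 fold changes of the 5 genes were 0.27 for Cd63, 0.21 for Ctsa, 0.33 for Ctss, 0.34 for Lgmn and 0.18 for Mcoln1. In limma their unadjusted p ran from 0.0109 (Ctss) to 0.0497 (Ctsa), and each adjusted p was 1.00. Leaving out any of the other 7 arrays gave 0 genes at that level. Averaged over the 35 genes, the deviation of NB 2 was -0.09, the lowest of the 8 arrays, and the other NB arrays were at 0.08, 0.02 and 0.06 (NB 3, NB 5 and NB 8). Leaving out the lowest NB array raises the NB mean over these genes, so the shared sign of the 5 is not a separate result.

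**Figure D3:**
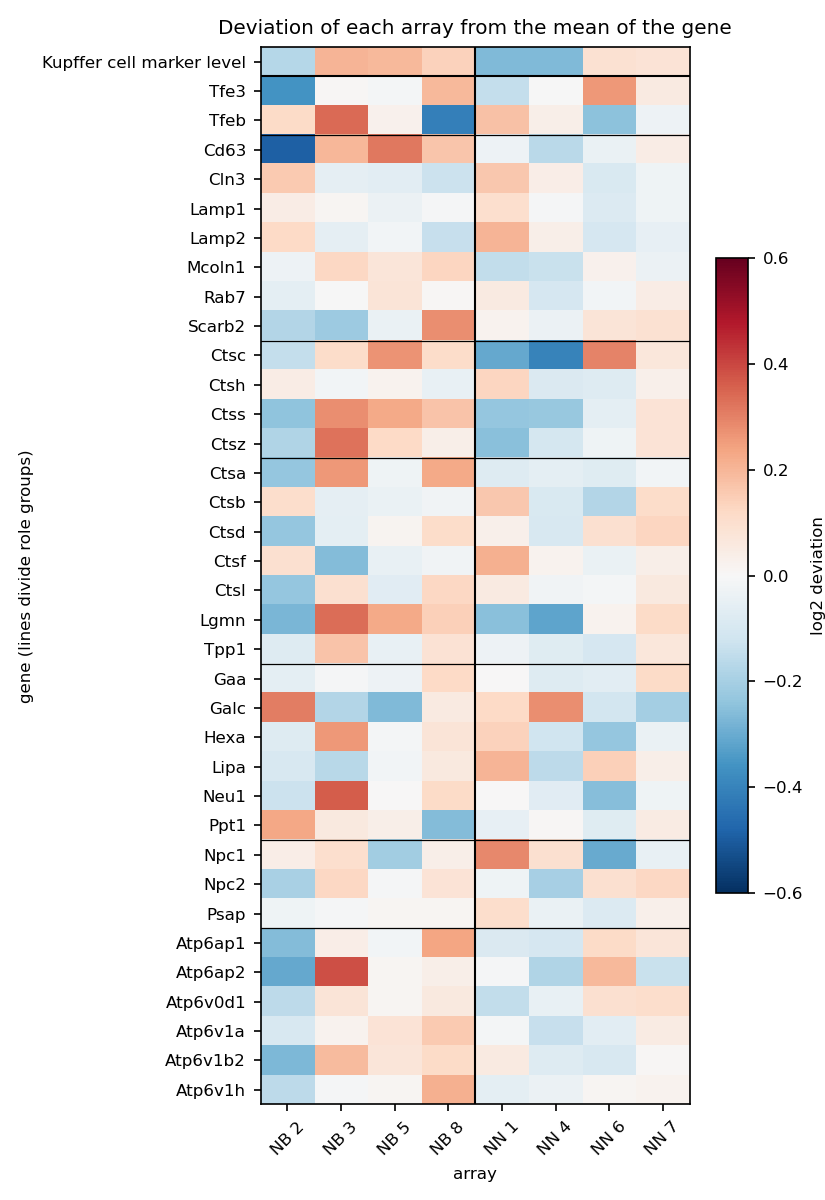
Deviation of each array from the mean of each gene (colour, log2 units), with the 4 NB arrays left of the 4 NN arrays, the Kupffer cell marker level in the top row and the 35 genes below it, lines dividing role groups. Ctss, Ctsc, Ctsz and Lgmn are blue on NB 2, NN 1 and NN 4, as is the marker level in the top row.

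The arrays differed in their level of macrophage markers, and the slopes of the lysosomal genes on this level were examined. None of the 35 passed the adjusted test. The Kupffer cell marker level is the mean of 11 markers (among them Clec4f, Vsig4, Timd4 and Marco), each centred on its mean over the arrays. It stood at -0.17, 0.20, 0.19 and 0.14 on the arrays NB 2, NB 3, NB 5 and NB 8, against -0.27, -0.27, 0.09 and 0.08 on NN 1, NN 4, NN 6 and NN 7. Of the 11 markers, 10 had a positive log2 fold change, NB over NN, with a median of 0.17, and 0 were called. The other, Timd4, had -0.07. Not all markers followed their mean: in limma, 7 of the 11 had a positive slope on it at an unadjusted p under 0.05, and 1 had a negative slope, of -0.44. Each marker is part of this mean, so these slopes are not independent of it. Marco, a scavenger receptor, contributed most, with 0.10, 1.34, 1.79 and 0.96 in NB, against -0.67, -0.62, 1.61 and 1.56 in NN. With Marco included, the 8 arrays formed a set of 3 with a low level and a set of 5 with a high one, each holding both genotypes. Neither set had 6 arrays, so the relation was not computed within them. Without Marco the level was -0.12, 0.17, 0.11 and 0.13 on the same NB arrays, against -0.15, -0.16, 0.02 and 0.01 on the NN arrays. The arrays NN 6 and NN 7 then lay between the 3 low arrays and NB 3, NB 5 and NB 8, so that the high end held NB arrays only.

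In a limma fit with genotype as a covariate, the slope of each gene on this level was tested over all 42982 features. At an adjusted p under 0.05, 0 of the 35 were called, where 6 features were called in all (0.014%), and at 0.1 it was 1 of the 35, against 0.886% of features. At an unadjusted p under 0.05 it was 12 of the 35, 9 with a positive slope and 3 with a negative one. Over all features, 15.8% passed that level, 8.32% with a positive slope and 7.47% with a negative one. A slope of 1 means that the signal was higher by 1 log2 unit per log2 unit of marker level.

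Lgmn had the slope with the smallest p, 1.20 ± 0.21 (SE, limma, adjusted p = 0.0914 over all features). Its 3 lowest arrays, NN 4, NB 2 and NN 1, were the 3 with the lowest marker level. Ctsc had a slope of 1.24 (adjusted p = 0.120), Ctss of 0.96 (adjusted p = 0.137) and Ctsz of 0.78 (adjusted p = 0.230). Ctsh, named with them as macrophage-rich, had a slope of -0.14 ± 0.22 (SE), so the 4 did not share a direction. Npc2, the soluble cholesterol carrier, had a slope of 0.67 (adjusted p = 0.221), with no difference in mean between genotypes to 2 decimals. The others with an unadjusted p under 0.05 and a positive slope were Cd63 (1.03), Tfe3 (0.85), Atp6ap1 (0.68) and Atp6v0d1 (0.56). All 6 proton pump genes had positive slopes, from 0.31 to 0.79, where 43.3% of all features had a positive slope. Of the 6, 2 had an unadjusted p under 0.05.

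Galc ran the other way, with a slope of -1.14 ± 0.25 (SE, adjusted p = 0.125 in limma). It had -2.84, -3.32, -3.41 and -3.09 in NB, against -3.03, -2.87, -3.26 and -3.35 in NN, and its highest array was NB 2. Lamp2 and Cln3 had slopes of -0.53 each, at an unadjusted p of 0.0424 for Lamp2 and 0.0304 for Cln3. With arrays scaled on their median, the slopes were -0.36 for each and neither had an unadjusted p under 0.05, and 11 of the 12 genes at that level were positive. Tfeb had a slope of -0.44 ± 0.49 (SE).

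**Figure D4:**
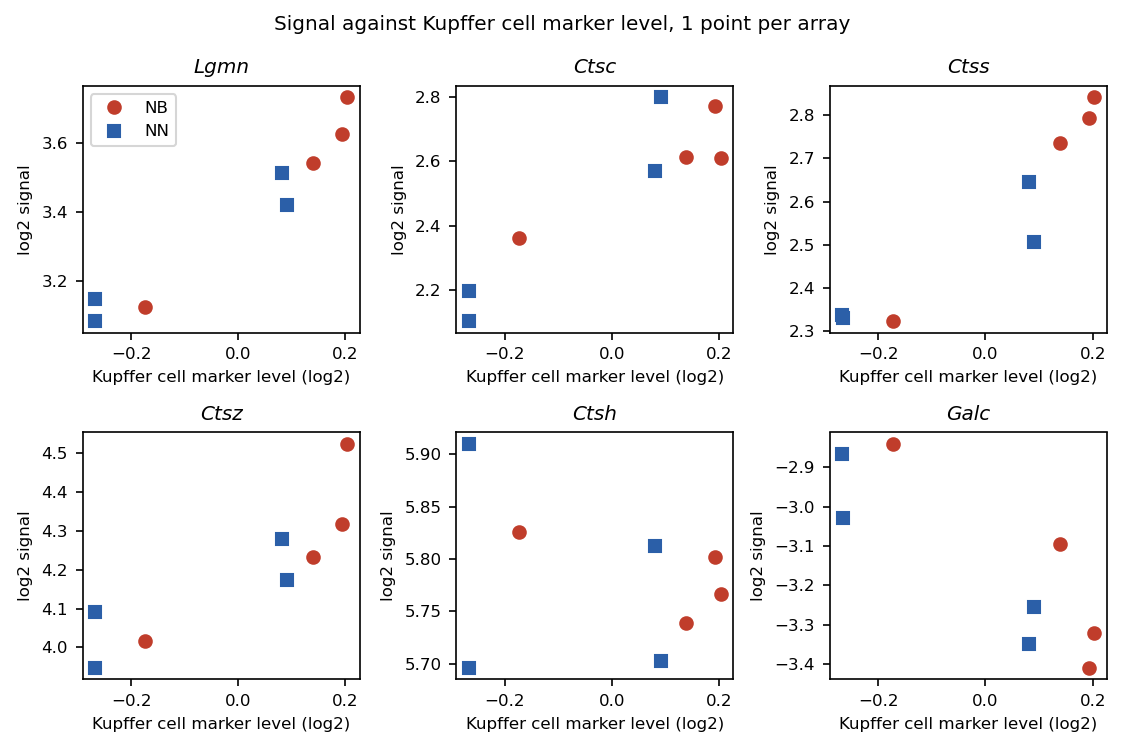
Log2 signal (vertical, 0 is the 75th percentile of the array) against the Kupffer cell marker level (horizontal, log2) for Lgmn, Ctsc, Ctss, Ctsz, Ctsh and Galc, 1 point per array, NB as red circles and NN as blue squares. The points form a set of 3 at marker levels of -0.27 to -0.17 and a set of 5 at 0.08 to 0.20, and Ctsh shows no tilt between them.

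With the marker level as a covariate, the log2 fold change between genotypes moved in both directions. This is the fit that gave the slopes, so each shift follows from the gene's slope and the genotypes' difference in marker level. It is not a separate result. The log2 fold change was 0.04 for Ctss, -0.05 for Ctsc, 0.01 for Ctsz and -0.0011 for Lgmn, against 0.22, 0.17, 0.15 and 0.22 without the covariate. Other genes with steep slopes did not move to 0. Galc went from -0.04 to 0.16, Tfe3 from -0.08 to -0.24, Npc2 from 0.0025 to -0.12 and Cd63 from 0.09 to -0.09. For Ctsh, the fourth of the macrophage-rich cathepsins, it was 0.03, against 0.0029 without it. It was larger in size for Ctsd (-0.17, against -0.08), Ctsl (-0.10, against -0.04) and Ctsb (0.05, against -0.0050). Over the 35 genes it was smaller in size in 12 and larger in 23, with 18 positive and 17 negative. For Mcoln1 it became 0.08, against 0.15 without it.

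Other measures moved with the marker level too. The 3 arrays with the lowest level, NN 4, NN 1 and NB 2, were also the 3 with the brightest 75th percentile, at 516, 538 and 584 intensity units, against 445 to 514 on the other 5. With this percentile as a covariate, 4 of the 35 genes had a slope at an unadjusted p under 0.05, against 7.58% of all features. With the slide column as a block it was 1, Lgmn, against 5.22% of all features. Without array NB 2 it was 5, against 8.94%. Without NN 1 and NN 4, the 2 arrays farthest from the median level, it was also 5, against 7.10%. The share of all features was thus lower in each of these fits than the 15.8% of the main fit. Of the 4 neutrophil markers measured, S100a8 and S100a9 had slopes of 3.37 and 3.60, while Retnlg and Csf3r had slopes of 0.22 and -0.05. Their part in the slopes was not tested. With a level built from 10 recruited macrophage markers instead, 1 of the 35 genes had a slope at an unadjusted p under 0.05, against 6.77% of all features. On the Kupffer cell marker level, 5 of these 10 markers had a positive slope and 5 a negative one, so their mean joins markers that ran in opposite directions. Of these 10 markers, 8 had a positive and 2 a negative log2 fold change between genotypes, with a median of 0.14, and 0 were called. Among them Csf1r, the receptor of the growth factor of macrophages, had 4.38, 4.35, 4.32 and 4.33 in NB, against 3.99, 3.82, 3.77 and 3.99 in NN. It was the only one of the 10 whose groups did not overlap, against 1.1% of all features (log2 fold change 0.46). Csf1r lies on chromosome 18, and whether the congenic segment holds it was not settled. Spp1 had a log2 fold change of 0.47, and Trem2 had -0.15.

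Beyond the 35, 112 further genes of the pathway were measured and none was called. They comprise relatives and regulators of TFEB, other lysosomal hydrolases and membrane proteins, enzyme targeting, lysosome fusion, other proton pump subunits and autophagy genes among the targets of TFEB. Their log2 fold changes were positive in 65 and negative in 47, with a median of 0.01. At an unadjusted p under 0.05 there was 1, Sort1, which encodes sortilin, a receptor that sorts proteins to lysosomes and lipoproteins in liver. Sort1 had 1.01, 1.27, 1.19 and 1.08 in NB, against 0.59, 0.79, 0.80 and 1.04 in NN. Only NB 2 lay below the highest NN array, and the log2 fold change was 0.33 ± 0.11 (SE, limma), with an unadjusted p of 0.0138 and an adjusted p of 1.00. A second probe of Sort1, also well above background on all 8 arrays, gave 0.0071, so its 2 probes disagree. The next 3 with a positive sign were Fnip2 (0.22), a partner of folliculin in the control of TFEB, the proton pump subunit Atp6v0e2 (0.22) and the amino acid transporter Slc36a1 (0.19).

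In 2 of the 112 (1.79%), Lamp3 and Vamp8, the genotypes did not overlap, a share near the 1.1% of all features. Lamp3, an inducible relative of Lamp1, had 1.73, 1.56, 1.69 and 1.70 in NB, against 1.79, 1.78, 1.79 and 1.85 in NN. Vamp8, a SNARE of autophagosome and lysosome fusion, had 4.83, 4.91, 4.97 and 4.99 in NB, against 5.01, 5.01, 5.07 and 5.05 in NN. The gaps between the groups were small, and the log2 fold changes were -0.13 ± 0.07 and -0.11 ± 0.07 (SE). The other 2 with a negative sign and the smallest p were Lamtor2 (-0.16), a subunit of the Ragulator that holds mTORC1 at the lysosome, and Mfsd8 (-0.11, with -0.04 and 0.03 for its other probes), a lysosomal membrane protein. For the slope on the Kupffer cell marker level, 14 of the 112 (12.5%) had an unadjusted p under 0.05, against 15.8% of all features, 10 positive and 4 negative, and 0 were called.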

How the data were processed

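Liver RNA labelled with Cy3 was hybridised to 1-colour Agilent arrays, 8 on 1 slide with 1 scan date. The deposited scanner files hold spot intensity values, per the file headers from Agilent Feature Extraction 11.5.1.1 after background subtraction, while the submitters' processing notes name version 9.1. The authors' value table, an alternative here, holds linear intensities in 59448 rows with the same sorted values in each column (median 84.2), its scale and centring not being stated. From 74.4% to 79.6% of probes per array were well above background, no spot was saturated, and 248 to 621 outlier spots per array were treated as missing.

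On the log2 scale, the 75th percentile of an array was subtracted from its processed signals. Probes that passed the software's background test on 4 or more of the 8 arrays were kept (46848 of 60273), and each gene was represented by its brightest probe. Accessions were matched to RefSeq symbols (GRCm38.p6), which left 42982 features, 23911 of them named genes. limma 3.58.1 (R 4.3.3; lmFit, eBayes, two-sided) gave NB minus NN and, with genotype as a covariate, the slope on the mean of 11 centred Kupffer cell markers, with Benjamini-Hochberg adjustment over all features at 0.05. Alternatives covered normexp with an offset of 50, other scalings, filters and probe summaries, variance models, slide row and column, other marker lists and each array left out. The steps were tested on simulated data.

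Genes given on every array are Tfeb, Tfe3, Lipa, the 4 macrophage-rich cathepsins, any member called or without overlap, and up to 5 more in each direction by the smallest p of the genotype test. To these come the 5 members with the smallest p of the slope and 4 further pathway genes in each direction. Cd63, Npc1, Marco, Csf1r, S100a8, S100a9, Retnlg, Csf3r, Spp1 and Trem2 were named after their values were seen. The members and lists were chosen with earlier results of these data known.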

Additional observations from a re-analysis of the deposited data

Results flagged for a closer look

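One value was marked for lying far from the others of its group, out of 86 sets of 4 arrays examined (1.16%, where chance gives about 5%). The Kupffer cell marker level of array NB 2 was -0.173, while the other NB arrays lay between 0.139 and 0.203, so that most of the range of the group lay between it and the nearest of them. Lgmn, Ctss, Cd63 and the proton pump genes were also low on this array. Array NB 2 also had the brightest 75th percentile of the 8, and the part of either in these values was not tested.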

How the results depend on the processing

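Between genotypes, 0 of the 35 genes were called under every alternative, and the count of all features called was 2 to 4, or 5 with the mean of the probes of a gene. Leaving out 1 array gave 2 to 3 called features, 0 to 5 of the 35 genes at an unadjusted p under 0.05 (5 without NB 2), 19 to 25 genes with a positive sign and a median log2 fold change of 0.01 to 0.04. Signs turned in some genes, 2 of them (Ctsc and Lgmn) among the largest differences. With the Kupffer cell marker level as a covariate, the log2 fold changes were -0.0528 for Ctsc, -0.0011 for Lgmn, 0.0535 for Cln3 and 0.0511 for Lamp2. Lamp2 was also at 0.0103 under quantile normalization and at 0.0117 in the authors' value table, and Ctsh at -0.0158 under normexp. Leaving out 1 array gave ranges of -0.0747 to 0.175 for Tfeb, -0.161 to 0.0230 for Tfe3, -0.0252 to 0.0462 for Ctsh, -0.103 to 0.0038 for Cln3 and -0.0911 to 0.0168 for Lamp2.

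The count of slopes called depended on the setting far more, and the cause was not tested. Over all features it was 367 under normexp, 18 under quantile normalization, 37 in the authors' value table, 100 for probes above background on all 8 arrays, 4577 without a filter, 533 with a trended robust variance, 495 with array weights, 155 with no genotype term and 381 at an adjusted p of 0.1. It was 0 with recruited macrophage markers, 0 without the 2 arrays farthest from the median level, and 0 to 3 with 1 array left out. Of the 35 genes, 1 was called under normexp, 4 without a filter, 2 with the trended robust variance, 1 with array weights, 1 with no genotype term and 1 at an adjusted p of 0.1. At an unadjusted p under 0.05 it was 1 with recruited macrophage markers (6.77% of all features) and 5 without the 2 farthest arrays (7.10%). With 1 array left out it was 5 to 13 (8.94% to 18.2% of all features), the lowest without NB 2. Alternatives chosen after seeing the data called 0 of all features each: markers without Marco (15 of the 35 genes at an unadjusted p under 0.05), the array percentile as a covariate (4) and the slide column as a block (1). In the same order, 16.7%, 7.58% and 5.22% of all features had an unadjusted p under 0.05. The median slope of all features was -0.09, 0.14 under normexp and 0.02 with median scaling. No paired analysis was possible because the sample numbers run through both genotypes and the groups share none. Each slide column held 1 array of each genotype, and with the column as a block 3 features and 0 of the 35 genes were called, with 1228 features and 0 of the 35 at an unadjusted p under 0.05.

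The number of arrays limits precision. In simulated data for the genotype test (42512 features), 22% of 50 features changed by 0.5 log2 units and 82% of 50 changed by 1 were called. For slopes of 1 it was 0%, and for slopes of 2 it was 32%, so the absence of calls among slopes near 1 was not read as a result. The simulated noise had the spread within genotypes, which includes any variation that follows the marker level. Recovery of slopes may thus be understated for genes that follow it. The simulated features varied independently of each other. Of those left unchanged, 5.24% had an unadjusted p under 0.05 for the slope and 4.87% for the genotype test. In the measured data the shares of all features were 15.8% and 1.69%, so the simulated rates may not hold for these arrays.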
